A study of Mus musculus with 8 samples.

Results

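Open chromatin regions that lay far from gene starts and close to each other were described in mouse bone marrow stromal cells. Peaks of 7 ATAC-seq libraries that shared at least 1 base were merged into 50683 regions. Of these, 26603 (52.5%) had their centre over 2500 bases from every annotated start site and were taken as distal. Distal regions with gaps of at most 12.5 kb were joined, and joined stretches with 5 or more regions were kept as dense stretches. There were 703 dense stretches among 15369 joined stretches. They held 4824 regions, which is 18.1% of the distal regions. The members were selected on the positions of the peaks alone, so their spacing, their number and the number of regions in each are a description of that selection and were given no test. The peak calls themselves rest on library reads against Input. Beyond these calls, the heights, the reads and the base composition of the peaks were not used to choose the members.

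The study sorted PDGFRα+ Sca-1+ cells lacking CD31, CD45 and TER119 from the bone marrow of wild-type C57BL/6J mice at 6 weeks after birth into 7 subpopulations. The labels describe every library as bone marrow derived stromal cells and do not tie the titles ATAC1 to ATAC7 to the sorted subpopulations, so the titles are used here. All 7 were called against the same Input library and there was 1 library per title. Every difference between libraries therefore has no replicate check. How many mice were pooled for a library is not stated. In these bulk libraries, fewer open cells and less opening per cell cannot be told apart.

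Distal open regions are sites where bound proteins keep nucleosomes away, and many of them act as enhancers that raise transcription of a gene at some distance. Several enhancers can lie near 1 gene, and clusters of them are known around genes that set the identity of a cell and around genes that respond quickly to stimuli. Clusters named super-enhancers are defined by histone acetylation or coactivators. Neither was measured here, and the dense stretches below rest on open chromatin only.

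The sequences of 8 regions are shown because the results return to their stretches. For each stretch the region without an exon that was called in most libraries is given, up to 200 bases at its centre, on the forward strand of mm9. Capitals mark matches to short motif letters on either strand, which are spelled out with the motif results. The *Fosb*, *S100a8* and *Chst11* regions were chosen after the values of their stretches were seen.
*Cd9*, chr6:125376540-125376739: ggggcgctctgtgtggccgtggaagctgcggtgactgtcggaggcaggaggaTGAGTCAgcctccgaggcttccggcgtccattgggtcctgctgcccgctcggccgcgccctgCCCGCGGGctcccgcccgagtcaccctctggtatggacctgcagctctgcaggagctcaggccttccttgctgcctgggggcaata
*Pmepa1*, chr2:173089238-173089437: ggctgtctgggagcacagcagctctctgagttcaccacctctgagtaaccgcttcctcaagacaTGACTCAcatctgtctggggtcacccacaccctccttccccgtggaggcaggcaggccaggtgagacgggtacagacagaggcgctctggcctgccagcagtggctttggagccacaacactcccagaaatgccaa
*Fosb*, chr7:19905069-19905268: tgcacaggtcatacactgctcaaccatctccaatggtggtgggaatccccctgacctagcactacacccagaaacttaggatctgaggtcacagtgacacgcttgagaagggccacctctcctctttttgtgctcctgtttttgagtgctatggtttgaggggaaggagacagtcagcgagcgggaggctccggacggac
*S100a8*, chr3:90463240-90463439: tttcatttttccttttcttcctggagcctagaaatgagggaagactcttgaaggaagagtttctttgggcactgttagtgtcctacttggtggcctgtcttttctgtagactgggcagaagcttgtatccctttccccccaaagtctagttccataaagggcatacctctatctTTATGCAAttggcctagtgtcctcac
*Chst11*, chr10:82556965-82557164: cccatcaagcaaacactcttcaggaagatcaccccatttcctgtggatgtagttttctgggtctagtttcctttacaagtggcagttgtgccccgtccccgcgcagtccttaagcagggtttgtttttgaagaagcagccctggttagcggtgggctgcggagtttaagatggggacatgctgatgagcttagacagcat
*Iqgap2*, chr13:96455779-96455968: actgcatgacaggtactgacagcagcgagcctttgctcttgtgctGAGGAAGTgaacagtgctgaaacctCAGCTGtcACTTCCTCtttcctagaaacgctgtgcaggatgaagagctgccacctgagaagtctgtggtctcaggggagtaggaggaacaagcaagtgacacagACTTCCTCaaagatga
*Lasp1*, chr11:97691304-97691503: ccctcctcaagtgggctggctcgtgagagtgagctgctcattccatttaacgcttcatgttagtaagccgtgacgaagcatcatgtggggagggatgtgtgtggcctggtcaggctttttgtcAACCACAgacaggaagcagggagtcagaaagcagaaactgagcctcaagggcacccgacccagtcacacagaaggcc
*Zfpm1*, chr8:124833131-124833330: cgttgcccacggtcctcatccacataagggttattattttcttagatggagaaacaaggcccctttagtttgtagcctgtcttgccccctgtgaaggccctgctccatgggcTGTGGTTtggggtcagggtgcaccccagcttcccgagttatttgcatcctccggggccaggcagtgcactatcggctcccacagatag
The *Cd9* region is intergenic and GC-rich (69.5% GC), with matches to the AP-1 letters and the EBF letters. The *Pmepa1* region is intronic, holds 1 match to the AP-1 letters and had peaks in all 7 libraries. The *Iqgap2* region is intronic, and its 190 bases hold 3 matches to the PU.1 letters and 1 to the E-box letters. The *Lasp1* and *Zfpm1* regions are intronic, and each holds 1 match to the RUNX letters. The *S100a8* region is intergenic and holds 1 match to the CEBP letters. The *Fosb* region (intergenic) and the *Chst11* region (intronic) hold none of the letters searched.

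Most dense stretches were short. The number of regions per stretch had a median of 6 and reached 28, and 625 of the 703 stretches (88.9%) had fewer than 10 regions. The length had a median of 18594 bases, quartiles of 12205 and 27715 bases and a range of 1539 to 97469 bases. Together the stretches spanned 0.561% of the 21 chromosomes. Inside them the median gap between neighbouring regions was 1967 bases, and regions covered a median of 8.6% of the bases of a stretch. Just inside the threshold, 277 stretches had 5 regions and a median length of 15216 bases. Just outside it, 567 joined stretches had 4 regions and a median length of 10957 bases. Of the remaining distal regions, 9884 had no other distal region within reach.

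**Figure D1:**
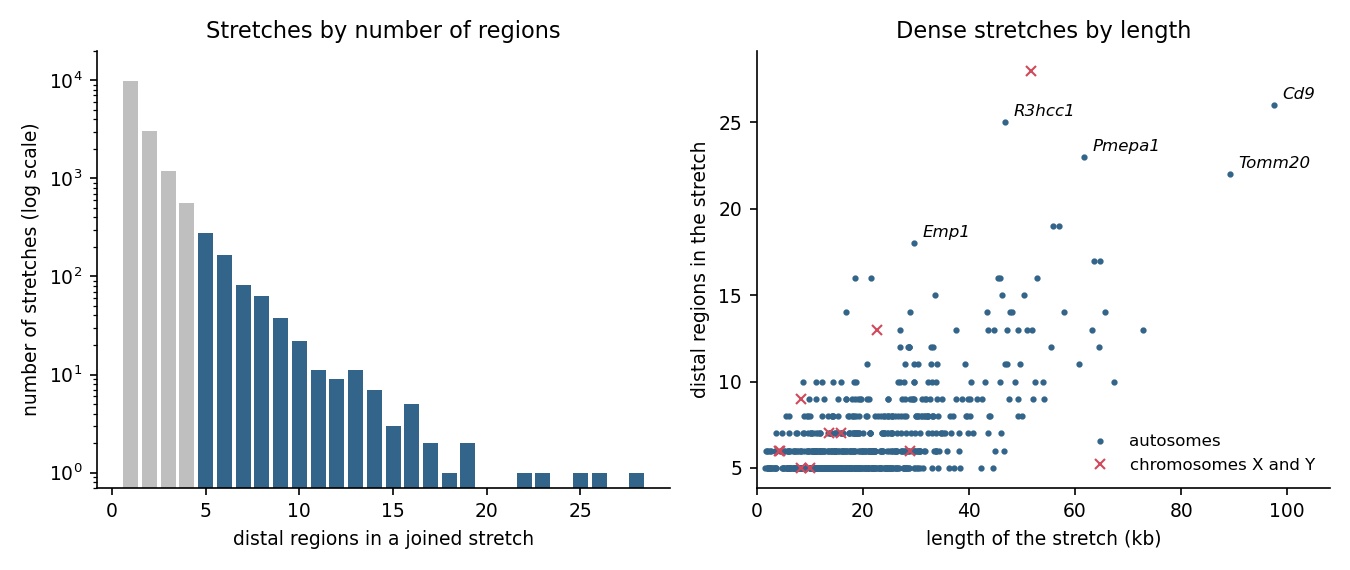
Left, number of joined stretches (log axis) by the number of distal regions in them, with the dense stretches in blue and the smaller ones in grey. Right, each dense stretch by its length in kb and its number of regions, where the median is 6 regions and the *Cd9* stretch is the longest at 97469 bases; crosses are stretches on chromosomes X and Y.

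The stretches lay both within and between genes. Of the 703, 279 (39.7%) lay within 1 protein-coding gene, 258 (36.7%) overlapped no protein-coding gene and 166 (23.6%) overlapped 1 or more genes without lying within just 1. A protein-coding start site lay inside 134 stretches. The distance from the centre of a stretch to the nearest protein-coding start site had a median of 22830 bases, and it was over 100000 bases for 67 stretches. By chromosome, the share of distal regions in dense stretches ranged from 10.8% on chromosome 11 to 22.9% on chromosome 17 among the autosomes. On chromosome Y, 41 of 43 distal regions were in dense stretches.

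Libraries differed widely in how much of the dense regions they covered. ATAC2 had a peak in 54.3% of the 4824 regions, ATAC5 in 52.4%, ATAC6 in 48.3%, ATAC1 in 34.9%, ATAC3 and ATAC7 in 18% each, and ATAC4 in 15.3%. This order follows the length of the peak lists closely, from 32280 peaks in ATAC2 to 15188 in ATAC7, with ATAC4 at 15650 peaks. At least 5 regions of a stretch were called in 210 stretches by ATAC2, 180 by ATAC5, 143 by ATAC6, 94 by ATAC1, 19 by ATAC7, 17 by ATAC3 and 13 by ATAC4. At least 1 library called 5 or more regions in 357 stretches (50.8%), and the other stretches reached 5 regions only with several libraries counted.

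The share of a library's own distal peaks that fell in dense stretches ran the other way. It was highest in ATAC3 at 27.7% (95% Wilson interval 26.2 to 29.2%). ATAC4 had 25.9% (24.4 to 27.5%) and ATAC7 had 25.9% (24.5 to 27.3%). ATAC1 had 21.4% (20.5 to 22.3%), ATAC6 19.9% (19.2 to 20.6%), ATAC5 18.8% (18.1 to 19.4%) and ATAC2 18.4% (17.8 to 19.0%). The intervals of ATAC3, ATAC4 and ATAC7 overlap each other and lie above those of the other 4 libraries, and those of ATAC5 and ATAC2 overlap. With equal peak numbers every share fell to between 6.78 and 11.4%, and ATAC7 (9.66%) then lay below ATAC1 (9.87%). The intervals cover counting error only. A library's own peaks help to make a stretch dense. When stretches were built from the other 6 lists, the shares were 27.0% in ATAC3, 26.0% in ATAC7, 25.8% in ATAC4, 17.0% in ATAC6, 16.0% in ATAC1, 14.3% in ATAC5 and 12.9% in ATAC2. The 3 libraries with the fewest distal peaks (3051 to 3593) thus kept their shares, and those with 8469 to 15227 distal peaks had lower ones.

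**Figure D2:**
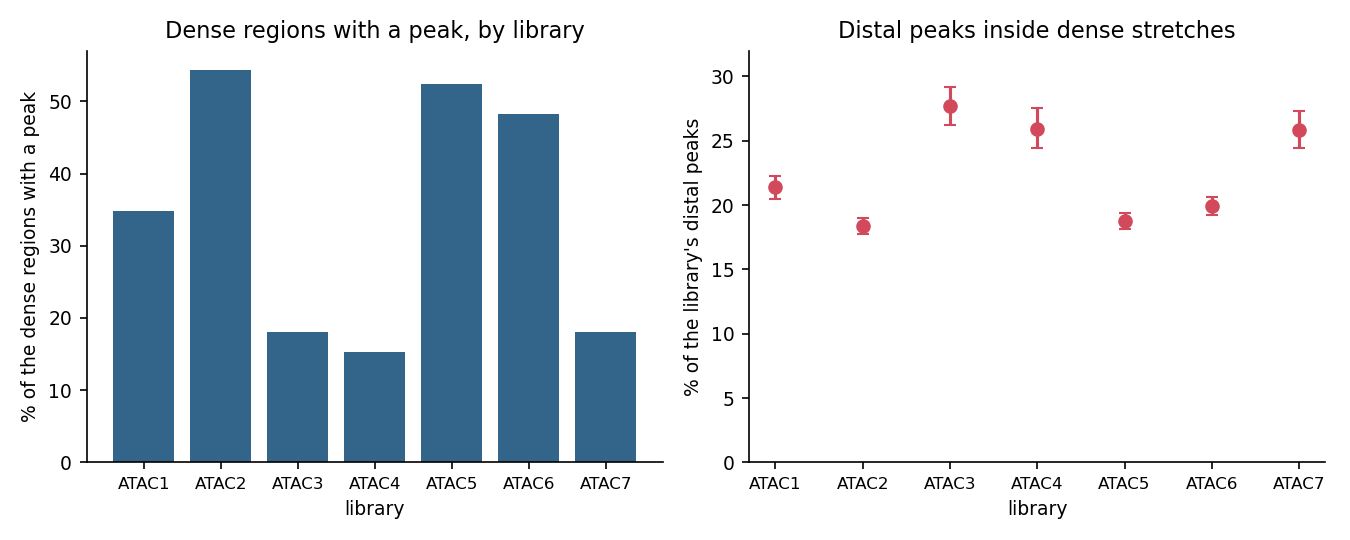
Left, percent of the 4824 dense regions with a peak in each library (bars from 0). Right, percent of each library's distal peaks that lay in dense stretches, with 95% Wilson intervals; ATAC3, ATAC4 and ATAC7 had the lowest values on the left (15.3 to 18%) and the highest on the right (25.9 to 27.7%).

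Dense regions were shared by slightly more libraries than other distal regions. Of the dense regions, 45.9% were called in 1 library and 5.27% in all 7, against 51.0% and 3.30% of the other distal regions and 30.6% and 31.0% of the regions at start sites. The mean number of libraries per region was 2.41 in dense stretches, 2.11 elsewhere among the distal regions and 3.87 at start sites. A stretch pools at least 5 regions, so it cannot be reached by fewer libraries than any of its regions. All 7 had a peak in 257 of the 703 stretches (36.6%), and 186 stretches (26.5%) held a region called in all 7. There were 83 stretches (11.8%) without any peak of ATAC1, ATAC3, ATAC4 or ATAC7. Another 3 (0.427%) had no peak of ATAC2, ATAC5 or ATAC6 and lay near *Ift57*, *Amigo2* and *Cdh26*. ATAC2, ATAC5 and ATAC6 have 12488 to 15227 distal peaks each, against 3051 to 8469 in the other libraries. The part of list length in these 2 counts was not tested.

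Regions of 1 stretch tended to be called in the same library. For ATAC1, the other regions of the stretch were called in 46.1% when a region was called and in 29.8% when it was not. The 2 values were 31.9 and 16.2% for ATAC3, 26.2 and 14% for ATAC4, and 28.1 and 17.6% for ATAC7. They lay closer together for ATAC2 (57.8 and 50.7%), ATAC5 (55.2 and 48.4%) and ATAC6 (49.9 and 46.5%). These are descriptions over regions that share their source, and no test was made.

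The stretch with most regions on an autosome lay around *Cd9*, which encodes a tetraspanin of the cell surface. It spanned chr6:125363382-125460850 and was the longest of all. Of its 26 regions, ATAC2 called 18, ATAC5 15, ATAC6 12, ATAC1 10, ATAC7 5, ATAC3 4 and ATAC4 3. Only 1 region was called in all 7, the one whose sequence is shown above. Its peaks held 204, 243, 174, 120, 398, 291 and 151 reads in ATAC1 to ATAC7 against 33 to 67 Input reads. Where a library had several peaks in a region, the values of the peak with most reads are given, here and below. Reads are not scaled to depth, so they are compared with Input in the same library and not between libraries.

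The next in size lay within *Loxl2*, a gene of the lysyl oxidase family whose enzymes cross-link collagen (chr14:70046531-70093359, 25 regions, nearest start site that of *R3hcc1*). ATAC1 called 9 of its regions, ATAC2 17, ATAC3 3, ATAC4 2, ATAC5 14, ATAC6 15 and ATAC7 10. The *Pmepa1* stretch on chromosome 2 had 23 regions, and the gene is induced by TGF-β and dampens its signalling. ATAC2 called 14 of them, ATAC6 12, ATAC5 10, ATAC1 4, ATAC3 3, ATAC7 3 and ATAC4 1. Its intronic region shown above held 574 reads in ATAC2, 529 in ATAC5 and 453 in ATAC6 against 43 to 47 Input reads, and 119 to 170 reads in the other 4 libraries against 19 to 31 Input reads. In all 3 stretches the most regions were called in ATAC2, ATAC5 and ATAC6 and the fewest in ATAC4.

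Other large stretches differed in this order. The one whose nearest start site is that of *Tomm20*, a receptor of the mitochondrial import machinery, lay 103436 bases from it, overlapped no protein-coding gene and had 22 regions. ATAC1 called 16 of them, ATAC5 15, ATAC2 and ATAC6 11 each, ATAC3 10, ATAC7 7 and ATAC4 6, and 4 were called in all 7. In a region among these 4, the peak with most reads held 845 reads against 70 Input reads in ATAC5 and 187 against 27 in ATAC4. A stretch near *Zfp36l2*, whose protein promotes decay of AU-rich mRNAs, had 19 regions, with 12 called in ATAC5, 9 in ATAC1, 8 in ATAC2, 8 in ATAC6, 7 in ATAC3, 5 in ATAC4 and 4 in ATAC7. *Zfp36l2* was also the gene nearest to most stretches, 4 with 38 regions in all.

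The stretches around *Nfatc1* (19 regions), *Emp1* (18) and *Ets1* (17) were called mostly in ATAC2, ATAC5 and ATAC6. *Nfatc1* and *Ets1* encode transcription factors and *Emp1* a small membrane protein. ATAC2 called 13, 11 and 10 of their regions, respectively, ATAC5 11, 10 and 8, and ATAC6 12, 4 and 7. ATAC4 called none of the *Nfatc1* and *Emp1* regions and 2 of those at *Ets1*. The *Rbm38* stretch (17 regions), which overlaps the gene of an RNA-binding protein, went the other way, with 12 regions in ATAC1, 7 in ATAC4, 6 in ATAC5, 6 in ATAC6, 3 in ATAC7, 2 in ATAC2 and 2 in ATAC3.

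In the 78 stretches with 10 or more regions, ATAC1 and ATAC2 often differed. ATAC1 called more regions than ATAC2 in 19 stretches, fewer in 54 and as many in 5. Over all 703 the numbers were 181, 440 and 82. The ATAC2 list has more peaks. The stretches named next, at both ends of this order, were chosen after their values were seen. At *S100a8* and *S100a9*, which encode the calprotectin subunits of neutrophils, ATAC1 called 8 of 10 regions, ATAC3 and ATAC5 2 each, ATAC2, ATAC4 and ATAC6 1 each and ATAC7 none. The 1 region there that was called in 6 libraries, shown above, held 62 to 123 reads against 5 to 7 Input reads. At *Bcl2l1*, which encodes the survival protein Bcl-xL, ATAC1 called 10 of 12 regions, ATAC4 4, ATAC5 3, ATAC2 2, ATAC6 2, ATAC3 1 and ATAC7 1. At *Eif2c2*, which encodes Argonaute 2, ATAC1 called 13 of 16 regions and no other library more than 5.

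Stretches with the opposite order lay at *Uck2*, *Chst11*, *Ttc7*, *Fndc3b*, *Cspg4* and *Sdc4*. At *Chst11*, a sulfotransferase gene of chondroitin sulfate, ATAC2 called 9 of 11 regions, ATAC5 and ATAC6 6 each, ATAC7 1 and ATAC1, ATAC3 and ATAC4 none. The region shown above held 349 reads in ATAC2, 252 in ATAC6, 171 in ATAC5 and 143 in ATAC7 against 17 to 28 Input reads. At *Cspg4*, the gene of the NG2 proteoglycan of pericytes, ATAC2 called 8 of 12 regions, ATAC5 and ATAC6 7 each, ATAC7 1 and the other 3 none. At *Sdc4*, a heparan sulfate proteoglycan gene, ATAC2 called 9 of 12, ATAC6 8, ATAC5 6, ATAC1, ATAC3 and ATAC7 1 each and ATAC4 none. At *Uck2*, a kinase gene of pyrimidine salvage, ATAC2 called 9 of 10, ATAC6 3, ATAC5 2, ATAC7 1 and the other 3 none.

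**Figure D3:**
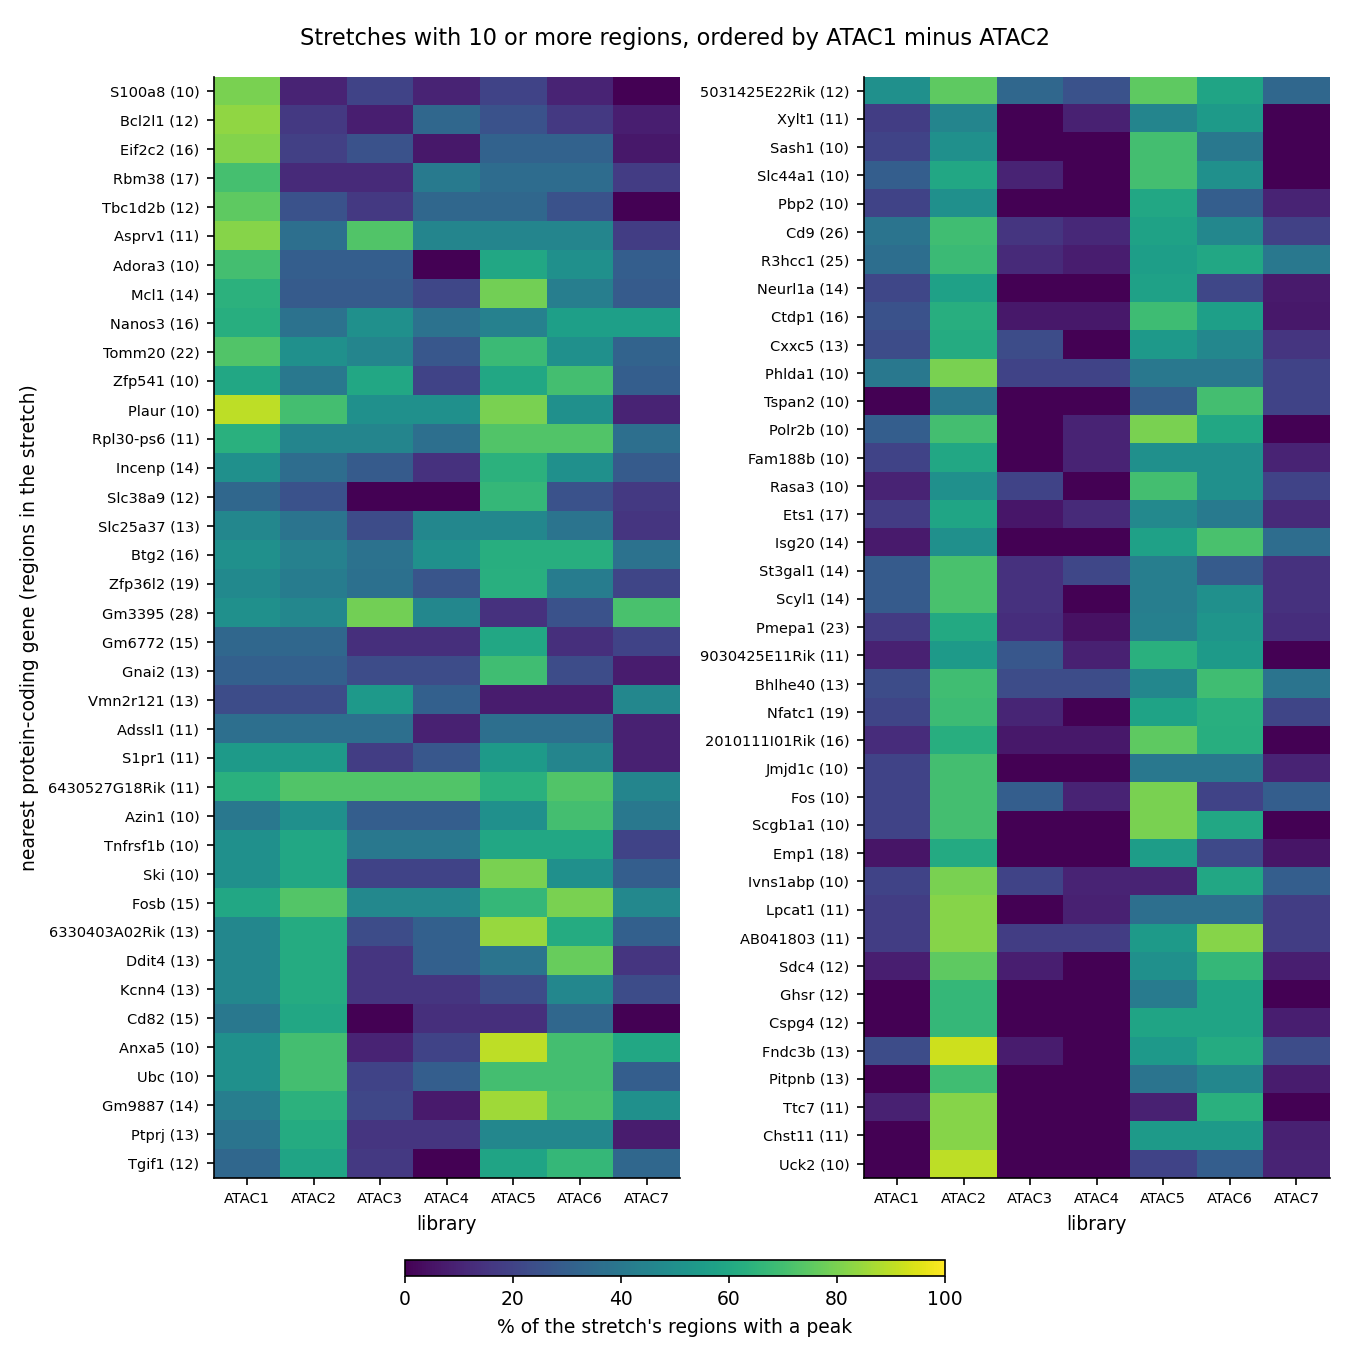
Percent of a stretch's regions with a peak (colour, 0 to 100) in each of the 7 libraries for 77 of the 78 stretches with 10 or more regions, named by the nearest protein-coding gene and ordered by ATAC1 minus ATAC2, from top left to bottom right. The order runs from *S100a8*, with 8 of 10 regions called in ATAC1 and 1 in ATAC2, to *Uck2*, with none in ATAC1 and 9 in ATAC2.

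Few stretches belonged to 1 library. For each library, the stretch with the largest excess of its share of regions over the mean of the other 6 is given. All 5 regions of the stretch nearest to *Cdh26*, a cadherin gene, were called in ATAC1 and in no other library, and the most read of those outside exons held 101 reads against 9 Input reads. All 5 regions of the stretch nearest to *Camk1g*, a calmodulin-dependent kinase gene, were called in ATAC2 alone, and the corresponding region held 144 reads against 9. These were the 2 stretches of the 703 with peaks of 1 library. Both lay over 100000 bases from the start site, at 121472 and 146814 bases. For ATAC5 the stretch was in *Rbfox2*, a splicing factor gene, with 5 of 5 regions called there, 1 in ATAC2 and none elsewhere.

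In the other 4 the excess was shared. Within *Zfpm1*, which encodes the GATA-1 partner FOG-1, ATAC6 called 5 of 5 regions, ATAC4 3, ATAC1 2, ATAC3 1 and ATAC2, ATAC5 and ATAC7 none. Its region shown above held 199 reads in ATAC1, 152 in ATAC4, 109 in ATAC6 and 49 in ATAC3 against 18 to 25 Input reads. Within *Iqgap2*, a scaffold protein gene, ATAC1 and ATAC4 each called 4 of 6 regions, ATAC6 2, ATAC5 1 and the other 3 none. Its region with 3 matches to the PU.1 letters held 101 reads in ATAC1, 49 in ATAC4 and 46 in ATAC5 against 8 to 10 Input reads. Within *Lasp1*, the gene of an actin-binding protein, ATAC3 called 4 of 6 regions, ATAC1 and ATAC6 3 each, ATAC4 2, ATAC5 1 and ATAC2 and ATAC7 none. For ATAC7 the stretch lay near *Gm16427*, with 3 of 6 regions and a median fold over Input of 3.91.

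The stretches with the most libraries per region were small. Near *6430531B16Rik* and *Adam8*, 3 of 5 regions were called in all 7 libraries (mean 5.8 libraries per region), and each library called 3 to 5 regions. At *Kdm6b*, the gene of a histone H3K27 demethylase, the mean was 5.67 over 6 regions, and 3 to 6 were called per library. The others lay at *Btd* (5.6), near *Krt8* (5.2) and near *Nenf* (5), against a median over stretches of 2.2. In these 5 stretches each library had a peak in at least 2 regions.

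**Figure D4:**
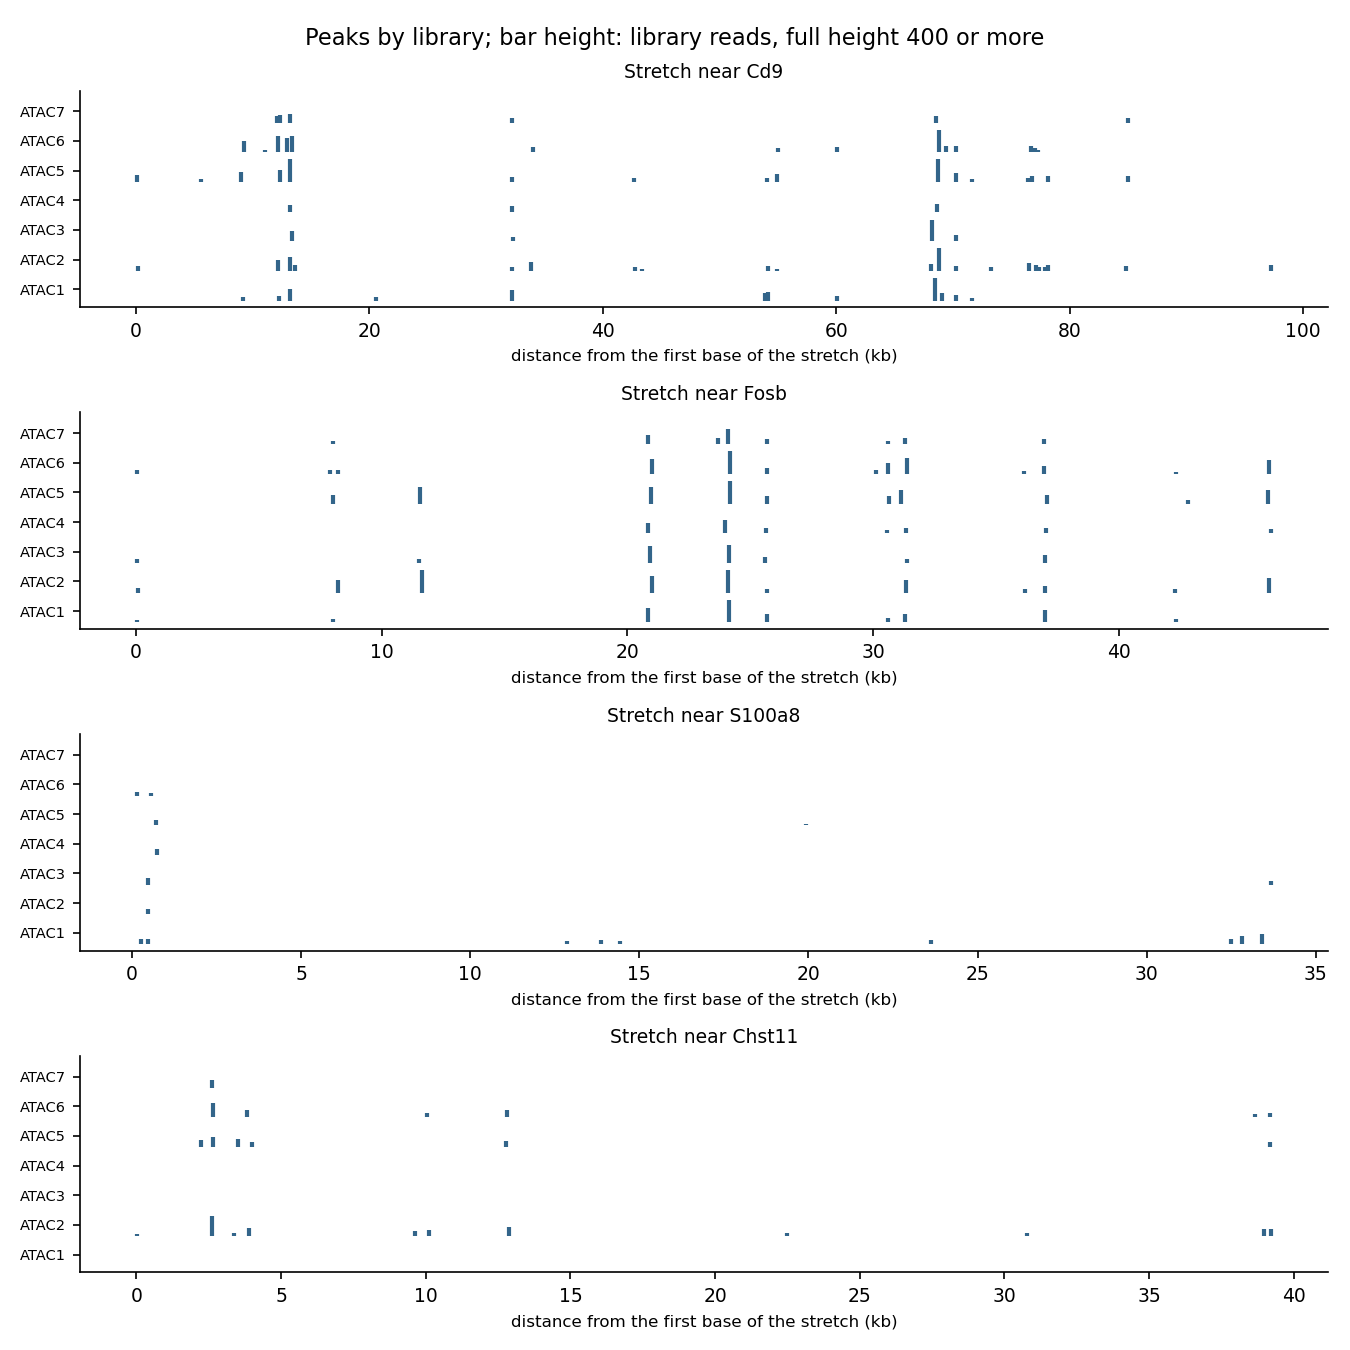
Peaks of the 7 libraries along 4 stretches, by the distance of their centre from the first base of the stretch in kb; the height of a bar gives the library reads and is full at 400 or more. The *Cd9* and *Fosb* stretches have peaks in all 7 libraries, the *S100a8* stretch mostly in ATAC1 (8 of 10 regions) and the *Chst11* stretch in ATAC2, ATAC5, ATAC6 and, in 1 region, ATAC7.

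The nearest protein-coding start sites to the 703 stretches belonged to 637 genes, which is 2.87% of the 22225 protein-coding genes. Of these genes, 581 were nearest to 1 stretch and 56 to several. The nearest gene is a position and need not be the gene that a region acts on. Of 5 lists of genes, the one with most genes nearest to a dense stretch was that of AP-1 subunits and other immediate early genes, which cells transcribe within minutes of a stimulus. It had 6 of 20 (30%). Among genes that were nearest to any distal region, which could have qualified, the share was 37.5% of 16 for this list and 7.70% of 8271 for all genes. With every start site within 100000 bases of a stretch counted, the list had 7 of 20 (35.0%) against 9.04% of all genes.

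The AP-1 and immediate early genes were *Fosb*, *Fos* and *Junb*, which encode AP-1 subunits, *Maff*, a small Maf factor, *Egr3* and *Klf6*, which encode zinc finger factors. Their 7 stretches held 55 regions. The *Fosb* stretch (chr7:19881305-19927593) had 15 regions, of which 5 were called in all 7 libraries. ATAC6 called 12 of them, ATAC2 11, ATAC5 10, ATAC1 9 and ATAC3, ATAC4 and ATAC7 7 each. Its region shown above held 472, 539, 318, 240, 673, 629 and 268 reads in ATAC1 to ATAC7 against 60, 66, 45, 43, 67, 72 and 40 Input reads. FosB pairs with Jun proteins to bind AP-1 letters. The *Fos* stretch had 10 regions, 8 called in ATAC5, 7 in ATAC2, 3 in ATAC3, 3 in ATAC7, 2 in ATAC1, 2 in ATAC6 and 1 in ATAC4.

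The mean number of libraries per region was 3.5 at *Junb*, 4.33 and 2.83 in the *Klf6* stretches and 3.6 at *Egr3*, above the median over stretches of 2.2, and 1.86 at *Maff*, below it. At *Junb*, ATAC5 called 4 of 6 regions, ATAC4 2 and the other 5 libraries 3 each. Next to the *Klf6* start site, each library called 3 to 5 of 6 regions, and a further stretch of 6 regions lay 331691 bases from that start site. At *Egr3* the stretch had 5 regions, called 2 to 4 times per library, and at *Maff* 7, of which ATAC5 called 5, ATAC6 3 and the other libraries 1 each. Over the 55 regions of the list, ATAC1 called 45.5%, ATAC2 56.4%, ATAC3 40.0%, ATAC4 30.9%, ATAC5 63.6%, ATAC6 56.4% and ATAC7 41.8%. The corresponding shares over all 4824 dense regions, given above, were lower in each library, by the most in ATAC7 and ATAC3.

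The other lists had fewer genes nearest to a stretch, to be read against 2.87% of all genes and 7.70% of those nearest to a distal region. The stromal and niche list had 2 of 30 (6.67%; 9.52% of 21 nearest to a distal region), *Cspg4* and *Nt5e*, the gene of the stromal surface marker CD73. At *Nt5e*, ATAC5 and ATAC6 called 5 of 5 regions, ATAC2 4, ATAC7 3, ATAC3 2, ATAC4 2 and ATAC1 1. The list of mesenchymal transcription factors had 3 of 29 annotated genes (10.3%; 12.5% of 24), *Nfia*, *Zeb1* and *Zeb2*, each with 1 stretch of 5 regions at 191806 bases or more from the start site. The haematopoietic list had 2 of 29 (6.90%; 10% of 20). At *Fli1*, an ETS factor gene, ATAC1 called 4 of 5 regions, ATAC2, ATAC3, ATAC5 and ATAC6 2 each and ATAC4 and ATAC7 none. At *Runx1*, ATAC2 called 4 of 5, ATAC5 3, ATAC1 and ATAC6 2 each and the others 1 each. The endothelial list had 0 of 20. With every start site within 100000 bases of a stretch counted, the stromal and niche list had 8 of 30 (26.7%), the haematopoietic list 5 of 29 (17.2%), the mesenchymal transcription factors 1 of 29 and the endothelial list 1 of 20, against 9.04% of all genes. The stromal and niche list then had more genes than the 7 of the immediate early list, and a smaller share. With counts this small the lists are described and not ranked.

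Start-site peaks give the setting for these stretches. A peak lay within 1000 bases of a start site for 49.1%, 50.3%, 43.6%, 43.8%, 52.9%, 51.7% and 42.2% of protein-coding genes in ATAC1 to ATAC7, respectively. For the 30 stromal and niche genes the counts were 10, 19, 9, 8, 19, 16 and 12 in ATAC1 to ATAC7. For the 29 haematopoietic genes they were 14, 12, 13, 9, 21, 17 and 9, for the 29 mesenchymal transcription factors 16, 20, 14, 12, 22, 20 and 13, for the 20 endothelial genes 1, 2, 0, 1, 7, 3 and 0, and for the 20 immediate early genes 18, 19, 18, 17, 19, 19 and 18. *Pdgfra*, whose product was used for the sort, had such a peak in ATAC2, ATAC4, ATAC5, ATAC6 and ATAC7 but not in ATAC1 and ATAC3. *Ly6a*, which encodes Sca-1, the other antigen selected for, had none in any of the 7 libraries. A start-site peak of *Ptprc*, which encodes the excluded antigen CD45, was called in 4 libraries (ATAC1, ATAC3, ATAC5 and ATAC7), and 1 of *Pecam1*, which encodes the excluded CD31, in ATAC5. Their part in the differences between stretches was not tested.

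Several stretches near 1 gene occurred at 56 genes. *Zfp36l2* had the most regions (38), and *Gm3395* on chromosome Y had 35 in 2 stretches. *2010111I01Rik*, an aminopeptidase gene, had 27 regions in 3 stretches, *Sash1*, a scaffold protein gene, had 24 in 3, and *Ets1* had 24 in 2. A stretch of 6 regions near *2010111I01Rik* held the microRNA genes *Mir23b* (chr13:63401780-63401876) and *Mir27b* (chr13:63402008-63402104), and ATAC2 called 5 of its regions, ATAC5 3, ATAC6 2 and the others none. At *Sash1* the stretch with most regions had 10, of which ATAC5 called 7, ATAC2 5, ATAC6 4, ATAC1 2 and the others none. In all, 9 annotated microRNA genes lay in dense stretches, with *Mir23b* and *Mir27b* in the same stretch. The share over all annotated microRNA genes is not given, so this count is a description only.

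To ask whether peaks in dense stretches differed from other distal peaks in measures outside the joining rule, the medians of both were compared within each library. Library reads and Input reads had already entered the peak calls of both groups. The fold and the reads are therefore not fully independent of the selection. The fold over Input was slightly lower in dense stretches. On the log2 scale the median was 2.98 against 3.07 in ATAC1, 3.32 against 3.43 in ATAC2, 2.66 against 2.70 in ATAC3, 2.70 against 2.79 in ATAC4, 3.40 against 3.50 in ATAC5, 3.26 against 3.34 in ATAC6 and 2.73 against 2.84 in ATAC7. The mean difference was -0.089 ± 0.025 (SD, n = 7), lower in 7 of 7 libraries (exact two-sided sign-flip permutation p = 0.0156, adjusted 0.0260 over 5 tests). This is the smallest p that 7 libraries allow. Without chromosomes X and Y the difference was -0.061 ± 0.034 (SD, n = 7), lower in 6 libraries, with an adjusted exact permutation p of 0.0521, and in ATAC3 it was 0.0056.

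Library reads per 1000 bases of the outer region were higher in dense stretches. The medians were 284 against 262 in ATAC1, 255 against 233 in ATAC2, 304 against 276 in ATAC3, 291 against 272 in ATAC4, 252 against 236 in ATAC5, 254 against 237 in ATAC6 and 291 against 265 in ATAC7. The mean difference was 21.3 ± 4.23 reads (SD, n = 7), higher in 7 of 7 (exact permutation p = 0.0156, adjusted 0.0260). Input reads per 1000 bases of the same regions were also higher in all 7, by 4.49 in ATAC5 to 7.63 in ATAC1, from medians between 34.6 and 44.5 in the other distal peaks. Library reads and Input reads were thus both higher, while the fold, which divides one by the other, was not. The part of local copy number, mappability or background in this was not tested.

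GC content was higher in dense stretches, with a mean difference of 1.05 ± 0.46 percentage points (SD, n = 7) and higher in 7 of 7 (exact permutation p = 0.0156, adjusted 0.0260). Medians in the dense peaks lay between 52.0% in ATAC2 and 53.8% in ATAC4. The difference was smallest in ATAC3 (0.500 points) and largest in ATAC1 (1.52 points). Peak width did not pass the test, with a mean difference of 0.286 ± 3.40 bases (SD, n = 7; exact permutation p = 0.906, adjusted 0.906) and medians of 144 to 179 bases in dense stretches. The outer region, in which reads were counted, was wider in dense stretches in 7 of 7 libraries and was given no test. Its medians were 352 (ATAC4) to 418 bases (ATAC5) in dense stretches and 322.5 (ATAC4) to 378 bases (ATAC5) elsewhere among the distal peaks. The share of peaks inside protein-coding genes did not pass it either. It was higher in dense stretches in ATAC2 (50.2 against 45.6%), ATAC5 (48.4 against 45.0%) and ATAC6 (49.7 against 46.0%) and lower in the other 4, with a mean difference of 0.896 ± 2.91 points (SD, n = 7; exact permutation p = 0.422, adjusted 0.527). The 7 libraries share regions and the Input, so they are not fully independent, and the p-values take them as if they were.

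**Figure D5:**
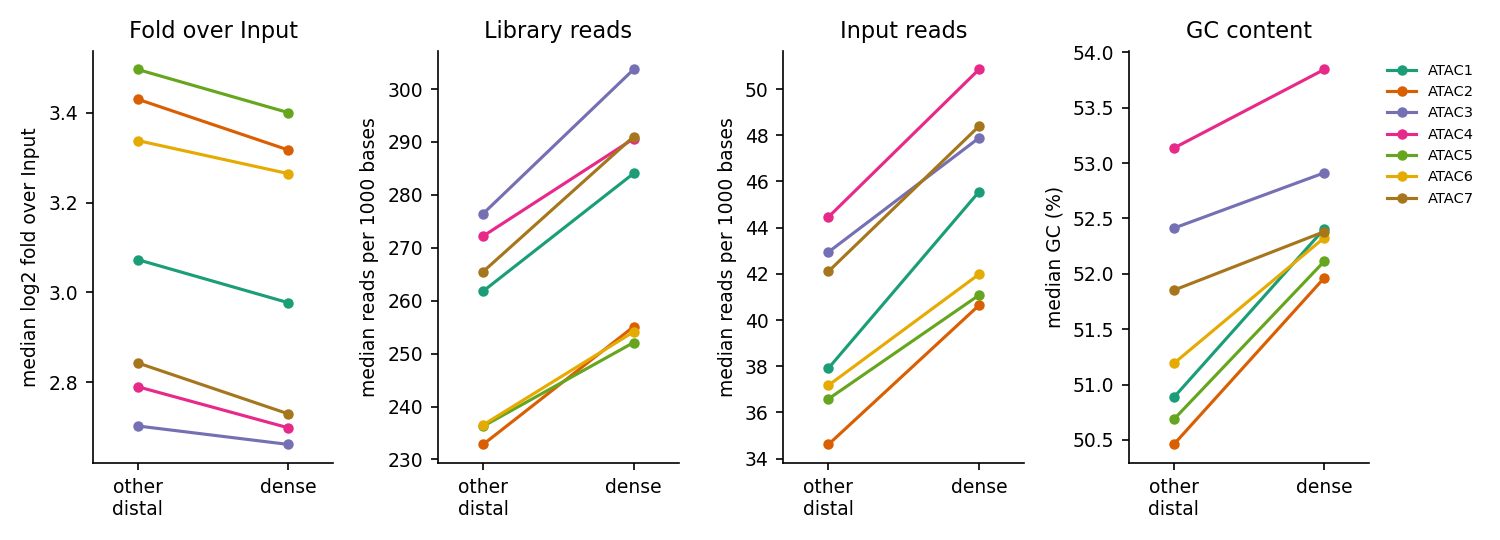
Medians of the peaks of each library (coloured lines) in other distal regions and in dense stretches for the log2 fold over Input, library reads and Input reads per 1000 bases and GC content; axes do not start at 0. Every line falls for the fold (mean -0.089) and rises for library reads (mean 21.3), Input reads and GC content (mean 1.05 points).

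Motif letters were counted in 200 bases at the centre of each region, on both strands. AP-1 letters (TGANTCA) were in 22.5% of dense regions, 24.6% of other distal regions and 7.19% of start-site regions. The motif of CTCF, the factor that marks boundaries of chromatin domains, was less frequent in dense regions, at 2.36% (95% Wilson interval 1.97 to 2.83%) against 4.18% (3.92 to 4.45%) of other distal regions. EBF letters (CCCNNGGG) were more frequent, at 8.58% (7.82 to 9.41%) against 6.95% (6.62 to 7.29%), and they reached 13.9% at the GC-rich start sites. For AP-1 the intervals were 21.3 to 23.6% and 24.1 to 25.2%, but the order was not the same within libraries. Among regions called in ATAC4, AP-1 letters were in 19.4% of dense (16.7 to 22.4%) and 13.97% of other distal regions (12.6 to 15.5%). Dense regions also had the higher share for ATAC1 (19.2 against 16.8%) and ATAC3 (25.5 against 22.7%) and the lower for ATAC2 (26.7 against 29.2%) and ATAC6 (24.6 against 25.9%), and for ATAC5 and ATAC7 the shares were 25.4 against 25.5% and 25.3 against 25.3%. Intervals of the other motifs overlapped between dense and other distal regions: GATA-factor letters (AGATAA) 7.32 against 7.46%, RUNX (TGTGGTT) 8.29 against 9.11%, CEBP (TTGCNNAA) 9.64 against 10%, PU.1 (GAGGAAGT) 2.78 against 2.99%, TEAD (ACATTCC) 3.96 against 3.66%, SOX (ACAATGG) 2.18 against 1.63% and the E-box (CAGCTG) 17.2 against 16.0%. Regions are not replicates, and a match is not a binding site.

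Within the dense regions, motif shares moved with the library. GATA letters, which blood and erythroid GATA factors read, were in 13% of the regions called in ATAC4 and 6.29% of those not called there. The shares were 8.98 and 6.43% for ATAC1, 6.69 and 7.90% for ATAC6, 5.41 and 7.74% for ATAC3, 5.15 and 9.70% for ATAC5, 4.50 and 10.7% for ATAC2 and 4.15 and 8.01% for ATAC7. PU.1 letters, read by the myeloid and lymphoid factor PU.1, were in 4.76% of the regions called in ATAC1 and 1.72% of those not called there. The shares were 4.38 and 2.43% for ATAC3, 3.23 and 2.68% for ATAC7 and 2.99 and 2.74% for ATAC4. They were 2.23 and 3.29% for ATAC6 and 2.02 and 3.68% for ATAC2. AP-1 letters were in 26.7% of the regions called in ATAC2 against 17.4%, and in 19.2% of those called in ATAC1 against 24.2%. In the other distal regions GATA letters were in 15.1 against 6.62% for ATAC4, 11.9 against 5.61% for ATAC1 and 4.26 against 11.4% for ATAC2. PU.1 letters were there in 5.65 against 1.90% for ATAC1, 5.37 against 2.71% for ATAC3 and 2.07 against 4.11% for ATAC2, and AP-1 letters in 29.2 against 19.0% for ATAC2. EBF letters were there in 9.46 against 6.65% for ATAC3, 8.97 against 6.73% for ATAC4, 8.41 against 6.75% for ATAC7 and 8.27 against 6.40% for ATAC1. For ATAC5 they were in 7.54 against 6.33%, for ATAC6 in 7.13 against 6.80% and for ATAC2 in 6.57 against 7.40%. The order was not the same in both kinds of region for every library. For ATAC3, AP-1 letters were in 25.5 against 21.8% of the dense regions and 22.7 against 24.9% of the other distal regions, and for ATAC5, PU.1 letters were in 3.01 against 2.52% and 2.93 against 3.06%. Regions not called in 1 library are by construction called in another, so the values of different libraries are not independent.

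Chromosome Y held the stretches of lowest fold over Input. The stretch with most regions of all lay on chromosome Y (chrY:2850644-2902313, nearest start site that of *Gm3395*), with 28 regions. ATAC3 called 22 of them, ATAC7 20, ATAC1 14, ATAC2 13, ATAC4 13, ATAC6 7 and ATAC5 4. Its median fold over Input was 2.40 against a median of 8.99 over all stretches, and its peaks had a median of 83.5 Input reads (19 to 254) against 15.5 and a GC content of 33.2%. Of the 703 stretches, 4 had a median fold under 3, of which 3 were those of chromosome Y and 1 lay near *Vmn2r121* on chromosome X. On the autosomes the lowest was 3.91, near *Gm16427*. High Input reads moved with the low folds here, and whether these regions are multi-copy sequence was not tested.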

How the data were processed

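ATAC-seq peaks of 7 libraries were used, 1 per title, each called by the authors against 1 Input library. The authors aligned reads to mm9 with bowtie and called peaks with the two-sample mode of CisGenome at a p-value limit of 1e-05, keeping an FDR under 0.01; a shift of reads for the transposase or a filter for duplicates is not given in the sources used here. Extra removal of duplicates or a shift would change read counts and move peak edges. The extraction text of the labels describes RNA libraries and was not used. The deposited tables give raw counts for each peak, namely library reads and Input reads in an outer region around it. The deposited fold is a ratio of these counts with 0.01 added to Input, multiplied by a factor that varied by at most 0.0477% within a library. Depths of whole libraries are not given, so reads are in peaks only. The median count of dense peaks was 91.0 to 107 reads by library, which limits the precision of each.

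Peaks were merged at 1 shared base and joined as described, with start sites of GENCODE vM1 on the mm9 genome. The log2 fold left out peaks without Input reads (at most 5 in the dense stretches of a library). Medians were compared within libraries by exact sign-flip permutation tests, with Benjamini-Hochberg adjustment over 5 tests. Stretches were named by rule: the 10 with most regions, the longest, 1 per library with the largest excess, those nearest to a listed gene, and the 5 with most libraries per region. Other stretches named were chosen after their values were seen. The members, lists and tests were chosen with earlier results of these data known. *Spi1* was matched as *Sfpi1*, and *Cebpd* and *Gfi1* were not annotated as protein-coding. Scripts used pysam 0.24.0, scipy 1.17.1, pandas 2.3.3, matplotlib 3.10.9 and numpy 2.4.6 under Python 3.11.15. Joining was tested on simulated data with planted stretches, and bedtools 2.31.1 gave the same 50683 regions and 703 stretches. In the plot of large stretches, 1 stretch is not reported here. Alternatives changed the gap, the number of regions, the distance to start sites, the peaks used and the libraries.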

Additional observations from a re-analysis of the deposited data

How the results depend on the processing

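The number of stretches, the regions in them and their median length follow the joining rule. With a gap of 5000 bases there were 299 stretches, 1879 regions and 7641 bases, and with a gap of 25000 bases 1166, 9085 and 40812. With 10 or more regions required there were 78, 1029 and 41637, and with 4 or more there were 1270 stretches. With the 15188 best-ranked peaks of each library there were 111 stretches and 705 regions, and with regions called in at least 2 libraries 166 and 1026. Outer regions in place of peaks left 489 stretches and 3174 regions. Merging peaks that lay within 100 bases of each other left 519 stretches and 3415 regions, so part of the count rests on close neighbours counted apart. Leaving out each library gave 544 to 711 stretches, 3629 to 4864 regions and 17775 to 18546 bases. The genes nearest to a stretch rose from 637 to 2009 when all start sites within 100000 bases were counted.

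Shares of distal peaks in dense stretches in ATAC1 to ATAC7 were 19.5, 17.0, 25.6, 23.5, 17.4, 18.5 and 23.6% with peaks of a fold of at least 5, and 9.87, 6.78, 11.4, 10.9, 6.999, 7.71 and 9.66% with equal peak numbers, where ATAC7 fell below ATAC1. With stretches built from the other 6 lists they were 16.0% in ATAC1, 12.9% in ATAC2, 14.3% in ATAC5 and 17.0% in ATAC6, and in the other 3 they stayed within the main intervals. The difference in fold kept its direction under all alternatives, and it lost its call with 7 libraries only when chromosomes X and Y were removed, an alternative chosen after seeing the data (-0.061, adjusted exact permutation p = 0.0521). Reads per 1000 bases and GC content passed the test under every alternative run with 7 libraries. Leaving out 1 library gave 20.3 to 22.2 reads, 0.968 to 1.14 points of GC and -0.097 to -0.085 of log2 fold, each with an exact permutation p of 0.0312, the smallest that 6 libraries allow, and an adjusted p of 0.0521, above the threshold of 0.05. Peak width and the share inside genes passed under none. In windows of 400 bases the intervals of RUNX, SOX and E-box letters no longer overlapped. No replicate block between titles was fitted, since no title has a second library. The 5 tests paired dense and other distal peaks within each library. Library depth is unknown, so a region without a peak in a short list may be open below the limit of detection.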
